A study of Mus musculus with 6 samples.

Results

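The genes described here are 44 genes of DNA replication and cell division, chosen by symbol. All 44 were found in the deposited table of normalised counts, which lists 24062 genes for the Twist2 line, and 21 of them also in the deposited CPM table (reads scaled to a common library size), which lists 4939 genes for both lines. They were kept apart as 19 replication genes and 25 mitosis genes. The replication genes act mainly from origin licensing to the end of DNA synthesis, and the mitosis genes mainly from the G2 phase to cytokinesis. RNA was sequenced from freshly sorted hind-limb muscle cells of adult C57BL/6 mice in which tamoxifen switches on the red fluorescent protein tdTomato. All mice carried the reporter R26-tdTO and had 3 tamoxifen treatments, one every other day, with harvest 10 days later. In Tw2-CreERT2/+;R26-tdTO+ mice the Cre is driven from Twist2, a gene of mesenchymal cells, and labelled (Tw2pos) and unlabelled (Tw2neg) cells gave 2 libraries each. In Pax7-CreERT2/+;R26-tdTO+ mice it is driven from Pax7, a gene of satellite cells, the stem cells of muscle fibres, and labelled (Pax7pos) and unlabelled (Pax7neg) cells gave 1 library each. The stated aim was to compare labelled cells of both lines. An unlabelled fraction is a mixture of every sorted cell without the label, so it is not one cell type, and the label records Cre activity at the time of tamoxifen.

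A cell that is about to divide first loads the Mcm helicase onto replication origins, a step called licensing, then passes from G1 into S phase when E2F transcription factors switch on the genes of DNA synthesis, and later switches on another set of genes for mitosis through FoxM1, B-Myb and the MuvB complex. In resting cells the DREAM complex, built from a retinoblastoma-related pocket protein, E2F4 and MuvB, holds both sets low. It reaches replication genes mainly through E2F sites and mitosis genes mainly through the cell cycle homology region, or CHR, a short element often found next to CCAAT boxes. In uninjured adult muscle, satellite cells and fibroblast-like progenitors are largely quiescent, while blood-forming and immune precursors divide often.

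Because the genes fall into these 2 sets, their promoters are shown first. RefSeq promoter windows on GRCm38.p6, running from 250 bases before to 50 bases after the transcript start, were on hand for 36 of the 44 genes, 16 of replication and 20 of mitosis. Those not matched were Gmnn, Mcm4, Ccne2, Ccna2, Foxm1, Aurkb, Kif20a and Tpx2. The windows of Cdc6, Chek1, E2f1 and Mcm7 lay wholly inside the GENCODE spans of these genes, downstream of the outermost start. So did the downstream of the 2 windows of E2f2. The words searched, on both strands, were TTTCCCGC, TTTCGCGC, TTTGCCGC and TTTGGCGC for E2F, TTTGAA for the CHR, and CCAAT. An E2F word stood in 7 of 16 replication promoters (43.8%), in 1 of 20 mitosis promoters (5%), and in 3.29% of the 17492 protein-coding genes with a window. The CHR word stood in 2 of 16 replication promoters (12.5%), in 14 of 20 mitosis promoters (70%) and in 18.5% of protein-coding genes. For E2f2, 1 of these 2 replication genes, it stood only in the downstream window, inside the gene. CCAAT stood in 9 of 16, in 17 of 20 and in 42.3% in the same order. All 14 mitosis promoters with a CHR word also held CCAAT (70% of 20), a pairing seen in 2 of 16 replication promoters and in 8.37% of protein-coding genes. In 13 of the 14 the CHR word began within 50 bases of the start (65% of the 20 mitosis promoters), against 4.58% of protein-coding promoters, a distance chosen after the positions were seen. Median GC content was 57.5% in replication, 58.8% in mitosis and 56.3% in protein-coding windows. A match is a description of the letters and not evidence that a factor binds there.

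The following windows show the word sets side by side, with every E2F, CHR and CCAAT match on either strand in capitals. Mcm6 (chr1:128359656-128359955, minus strand) held 3 E2F matches, at -110, -106 and -47 from the start, of which the first 2 overlap, and 2 CCAAT matches. E2f2 (chr4:136172024-136172323, plus strand) held an E2F word at 40 and CCAAT at -13 in the window of its upstream start. Cdk1 (chr10:69352863-69353162, minus strand) held all 3 kinds, with the CHR word at -71 and -15, and Ccnb2 (chr9:70421505-70421804, minus strand) held 3 CCAAT matches and a CHR word at -167 and 5. Each is written 5′ to 3′ on the strand of its gene.
Mcm6: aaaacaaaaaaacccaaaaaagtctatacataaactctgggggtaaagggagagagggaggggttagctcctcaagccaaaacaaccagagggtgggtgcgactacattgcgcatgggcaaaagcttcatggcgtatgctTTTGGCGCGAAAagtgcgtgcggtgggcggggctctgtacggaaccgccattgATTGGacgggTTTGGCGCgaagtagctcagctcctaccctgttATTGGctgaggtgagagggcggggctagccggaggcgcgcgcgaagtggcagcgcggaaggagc
E2f2: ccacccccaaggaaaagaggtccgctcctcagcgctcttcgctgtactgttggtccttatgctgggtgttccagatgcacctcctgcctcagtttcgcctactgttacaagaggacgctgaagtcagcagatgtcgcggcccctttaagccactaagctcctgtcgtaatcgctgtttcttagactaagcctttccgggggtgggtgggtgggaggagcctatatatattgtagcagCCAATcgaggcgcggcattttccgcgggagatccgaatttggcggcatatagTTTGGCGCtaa
Cdk1: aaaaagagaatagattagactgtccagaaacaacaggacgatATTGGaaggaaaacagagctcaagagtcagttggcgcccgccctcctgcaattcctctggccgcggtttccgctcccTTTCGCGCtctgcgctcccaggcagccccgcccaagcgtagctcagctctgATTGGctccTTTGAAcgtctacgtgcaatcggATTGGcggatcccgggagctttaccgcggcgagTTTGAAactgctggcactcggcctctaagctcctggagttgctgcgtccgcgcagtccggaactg
Ccnb2: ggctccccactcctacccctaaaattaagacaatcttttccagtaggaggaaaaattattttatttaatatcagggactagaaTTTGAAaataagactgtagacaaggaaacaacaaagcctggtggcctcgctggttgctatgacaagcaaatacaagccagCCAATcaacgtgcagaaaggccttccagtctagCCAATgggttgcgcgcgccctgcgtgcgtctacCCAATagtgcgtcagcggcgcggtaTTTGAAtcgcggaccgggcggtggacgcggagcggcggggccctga

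The normalised count table gave 10902318 and 12425426 reads for the Tw2pos libraries and 13205751 and 13005707 for Tw2neg. Over the 4939 genes of the CPM table Pax7pos held 6016469 reads and Pax7neg 7565797. Values are given in the order replicate 1, replicate 2, a mean carries its SD, and a log2 fold change is on the scale of log2(value + 1), where that of a weakly expressed gene is understated. Whether the replicates are separate animals is not stated in the labels, so the p-values speak only for the spread among these libraries, and that spread may be technical. In mixed cells, fewer cells of a type and less RNA per cell cannot be told apart. Labelled cells carried the marker genes of their line: Pdgfra stood at 898 and 892 CPM in Tw2pos, 269 and 176 in Tw2neg, 4.28 in Pax7pos and 264 in Pax7neg. Pax7 stood at 12.2 and 7.21 CPM in Tw2pos, 45.7 and 14.8 in Tw2neg, 303 in Pax7pos and 0.402 in Pax7neg.

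In the Twist2 line, 38 of the 44 genes were lower in labelled than in unlabelled cells and none was higher, with limma at a Benjamini-Hochberg adjusted p under 0.05 over all 14155 genes tested. Of all genes tested, 20.0% were lower and 18.7% were higher. All 25 mitosis genes and 13 of the 19 replication genes were lower. The median log2 fold change was −2.23 over the mitosis genes, −1.63 over the replication genes and −0.04 over all genes tested. Both Tw2pos libraries lay under both Tw2neg libraries for 41 of the 44 genes, 16 of replication and 25 of mitosis, against 39.2% of all genes tested. The exceptions were Chek1, whose libraries overlapped, and Tyms and E2f1, which lay higher in both Tw2pos libraries without passing the test. Summed over the 19 replication genes, the level was 304 and 308 CPM in Tw2pos and 579 and 777 in Tw2neg. Summed over the 25 mitosis genes it was 134 and 83.4 CPM in Tw2pos and 475 and 635 in Tw2neg. The labelled cells therefore held 45.1% of the unlabelled level of replication transcripts and 19.6% of that of mitosis transcripts. The replication value rests on 3 abundant genes that moved little: Mcm4, Pcna and Rrm1 made up 59.6% and 59.7% of the replication sum in Tw2pos and 44.2% and 36.5% in Tw2neg. Without them the other 16 replication genes stood at 30.2%. Over the genes that are also in the CPM table, labelled cells held 24.0% for 8 replication genes and 18.2% for 13 mitosis genes, so the gap between the sets depends on which genes are summed. The quotient of replication over mitosis sums, which the same 3 genes enter, was 2.28 and 3.69 in Tw2pos and 1.22 and 1.22 in Tw2neg.

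**Figure D1:**
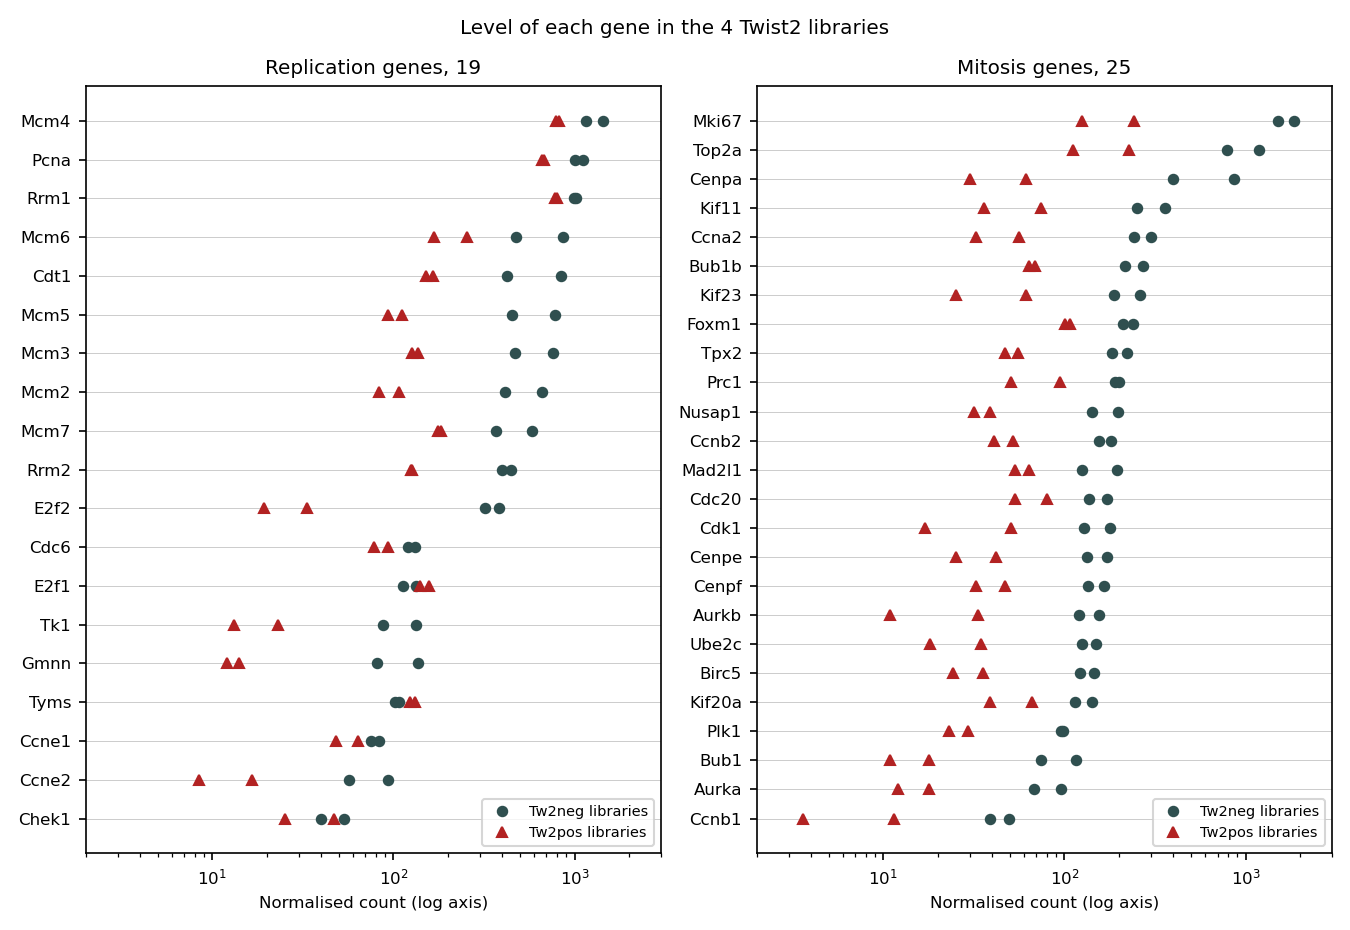
Normalised count (log axis) of each of the 19 replication genes (left) and 25 mitosis genes (right) in each library, with Tw2neg as circles and Tw2pos as triangles, ordered by the Tw2neg mean. For all 25 mitosis genes both triangles lie left of both circles, whereas among the replication genes Tyms and E2f1 lie right of them and Chek1 overlaps.

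The calls on single genes depended on single libraries more than their direction did. Calls over all genes tested also fell without either Tw2pos replicate and without Tw2neg replicate 2, so a lost call is not particular to these genes. Without Tw2pos replicate 2, 26 genes passed, and Cenpf, Cdk1, Ccnb1, Mcm4, Kif20a, Pcna, Cdc20, Mcm7, Mad2l1, Foxm1, Prc1 and Plk1 no longer did. Without Tw2neg replicate 2, 29 passed, and the calls lost were those of Mcm6, Cdk1, Aurkb, Ccnb1, Kif20a, Cdc20, Mad2l1, Prc1 and Kif23. Without Tw2pos replicate 1 the calls of Mcm6, Mcm4, Pcna, Cdc20, Mad2l1 and Foxm1 were lost, and without Tw2neg replicate 1 that of Prc1. Kif20a, Cdc20 and Mad2l1 also missed the threshold under quantile normalization, Kif20a without a filter on low values, and Mcm4 and Pcna without a variance trend. The log2 fold change of all 38 genes was below 0 in each of these settings.

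Origin licensing genes were lower in labelled cells for 8 of 9. Mcm2, Mcm3, Mcm4, Mcm5, Mcm6 and Mcm7 encode the 6 subunits of the replicative helicase. Mcm2 had 107 and 83.2 normalised counts in Tw2pos against 412 and 657 in Tw2neg (log2 fold change −2.45, SE 0.30, adjusted p = 0.00282). Mcm5 had 111 and 92.9 against 449 and 785 (−2.54, SE 0.31, adjusted p = 0.00291), and Mcm3 had 136 and 127 against 470 and 758 (−2.17). For these subunits both Tw2pos libraries were low and lay far under both Tw2neg libraries. Mcm6 had 167 and 256 against 475 and 868 (−1.63, SE 0.36, adjusted p = 0.0165), and Mcm7 had 182 and 176 against 369 and 584 (−1.37, SE 0.27, adjusted p = 0.0119). Mcm7 shares exon sequence with Ap4m1 and Cops6 on the opposite strand and hosts Mir25 and Mir93, and whether reads were counted by strand is not known from the labels. Mcm4 moved least, with 789 and 818 against 1156 and 1439 (−0.68, SE 0.19, adjusted p = 0.0334). The 6 subunits, which work as 1 ring, thus spanned log2 fold changes from −2.54 to −0.68, and the reads of Mcm2 per read of Mcm4 were 0.136 and 0.102 in Tw2pos against 0.357 and 0.457 in Tw2neg.

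The loading factors around the helicase did not move alike. Cdt1, which brings the helicase to origins, had 152 and 165 normalised counts in Tw2pos against 423 and 847 in Tw2neg (log2 fold change −1.91, SE 0.35, adjusted p = 0.00911). Cdc6, the ATPase that loads it, had 93.1 and 78.4 against 131 and 121, without overlap but without passing (−0.55, SE 0.26, adjusted p = 0.145). Gmnn encodes geminin, which binds Cdt1 after S phase begins and stops licensing from happening again. It had 14.0 and 12.1 normalised counts, from 11 and 10 reads, against 81.3 and 138, the largest fall among the licensing genes (−2.93, SE 0.40, adjusted p = 0.00389). The origin recognition complex, which lies under all of these, was held by a wider list: Orc1 fell (6.37 and 3.62 against 22.8 and 43.2, −2.47, adjusted p = 0.0185), while Orc2 (−0.14), Orc3 (−0.11), Orc4 (−0.03), Orc5 (−0.08) and Orc6 (−0.46) did not pass.

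**Figure D2:**
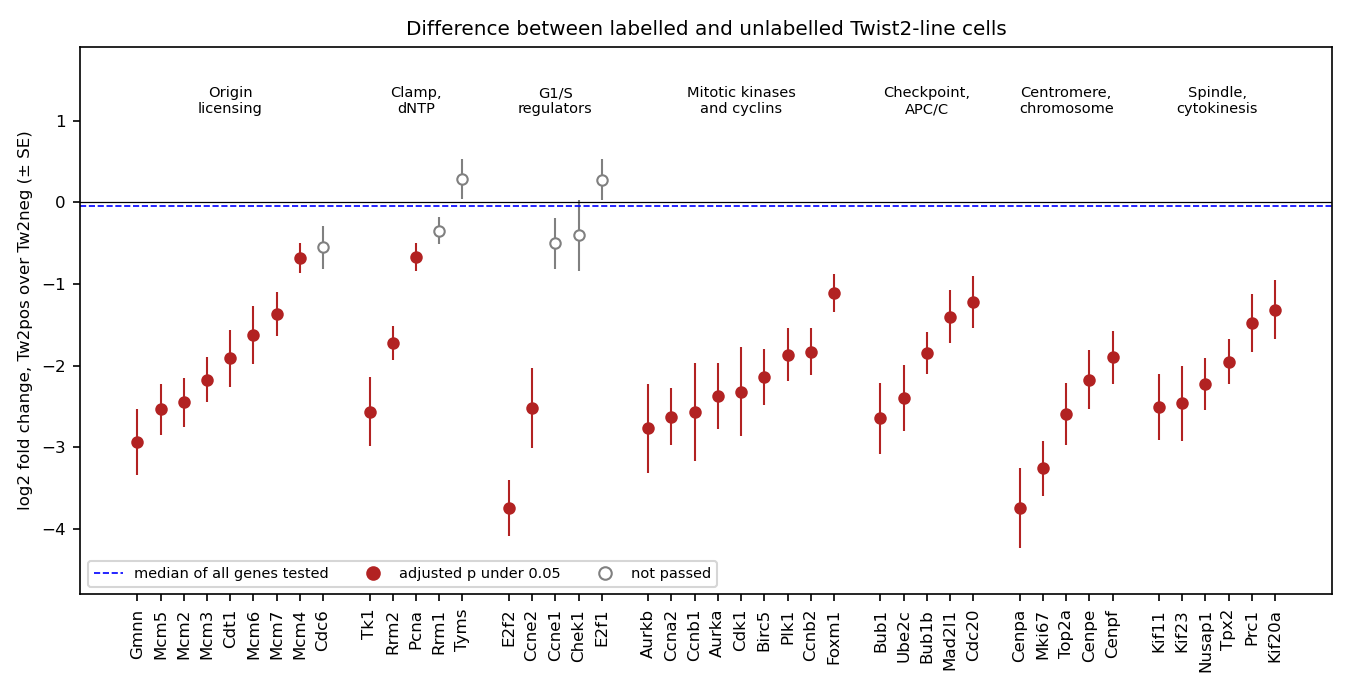
log2 fold change of Tw2pos over Tw2neg (± SE, 2 libraries against 2) for the 44 genes, grouped by role, with filled points for an adjusted p under 0.05, open points for genes that did not pass, and the median of all genes tested as a dashed line. All open points lie in the 3 replication roles, and the mitosis roles run from −1.11 for Foxm1 to −3.74 for Cenpa.

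Among the genes of the sliding clamp and of nucleotide supply, 3 of 5 were lower. Pcna, the clamp that holds polymerases on DNA and that also serves in repair, had 678 and 659 normalised counts in Tw2pos against 1012 and 1117 in Tw2neg (log2 fold change −0.67, SE 0.17, adjusted p = 0.0262). The subunits of ribonucleotide reductase, the enzyme that makes deoxyribonucleotides, parted. Rrm1, the large subunit, had 776 and 798 against 1018 and 988, without overlap but without passing (−0.35, SE 0.16, adjusted p = 0.142). Rrm2, the small subunit of S phase, had 127 and 125 against 397 and 447 (−1.73, SE 0.21, adjusted p = 0.00265). Reads of Rrm2 per read of Rrm1 came to 0.164 and 0.157 in Tw2pos and 0.390 and 0.452 in Tw2neg. Such a quotient is not corrected for gene length, so its level is not read, only its change between groups. The thymidylate enzymes parted as well. Tyms, which makes thymidylate anew, had 124 and 131 against 102 and 108 (0.28, SE 0.25, adjusted p = 0.399). Tk1, the salvage kinase that is made around S phase, had 22.9 and 13.3 against 87.8 and 134 (−2.56, SE 0.42, adjusted p = 0.00682), so that both Tw2pos libraries were low. Tk1 shares a short stretch of exon with Afmid on the opposite strand.

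Among the G1/S regulators 2 of 5 were lower, and paralogues went apart. E2f1 and E2f2 encode activating E2F factors. E2f2 (chr4:136172394-136196057, plus strand) had 33.1 and 19.3 normalised counts in Tw2pos against 322 and 383 in Tw2neg (log2 fold change −3.74, SE 0.34, adjusted p = 0.00121), a mean of 26.2 ± 9.79 against 353 ± 43.1, 13.4-fold lower. E2f1 (chr2:154559407-154569892, minus strand) had 140 and 157 against 133 and 113 (0.28, SE 0.25, adjusted p = 0.408). The reads of E2f2 per read of E2f1 were 0.236 and 0.123 in Tw2pos and 2.43 and 3.40 in Tw2neg. Ccne1 and Ccne2 encode the E cyclins that drive Cdk2 into S phase. Ccne2 had 16.6 and 8.44 against 56.9 and 93.6 (−2.52, SE 0.49, adjusted p = 0.0112), with 17.4% of its exon bases shared with Ints8 on the opposite strand. Ccne1 had 48.4 and 63.9 against 75.6 and 83.2, without overlap but without passing (−0.50, SE 0.31, adjusted p = 0.24). Chek1, the kinase of the replication checkpoint, had 47.2 and 25.3 against 39.8 and 53.6, so the groups overlapped (−0.41, SE 0.43, adjusted p = 0.489). Scaling by library totals placed E2f1 at −0.17 and Tyms at −0.16, again without a call, and called Cdc6, Ccne1 and Rrm1 as lower, so the sign of the first 2 rests on the scaling. That scaling also moved the median of all genes tested from −0.04 to −0.49 and the calls from 2645 higher and 2825 lower to 1607 higher and 5257 lower.

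The E2F promoter words can be set beside these calls. Of the 10 lower replication genes with a window, 6 held an E2F word (60%), namely Cdt1, Mcm3, Mcm5, Mcm6, Mcm7 and E2f2, and of the 6 that did not pass, 1 did (16.7%), Cdc6. CCAAT stood in 8 of the 10 and in 1 of the 6. The windows of Cdc6, Chek1 and E2f1 (not passed) and of Mcm7 (lower) lay inside the annotated gene, downstream of its outermost start. Such windows may miss the promoter, so the lower genes and those that did not pass are not compared on like windows. These counts are also small, and no test was made on them.

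The mitotic kinases, cyclins and their regulators were lower in labelled cells for all 9. Ccna2, cyclin A, had 56.1 and 32.6 normalised counts in Tw2pos against 242 and 300 in Tw2neg (log2 fold change −2.63, SE 0.34, adjusted p = 0.00339), with 12.5% of its exon bases shared with Exosc9 on the opposite strand. Cdk1, the mitotic kinase itself, had 51.0 and 16.9 against 128 and 178 (−2.32, SE 0.54, adjusted p = 0.0207). The B cyclins that switch it on were both lower: Ccnb2 had 52.3 and 41.0 against 155 and 182 (−1.83, SE 0.29, adjusted p = 0.00582). Ccnb1 fell to 11.5 and 3.62, from 9 and 3 reads (−2.57). Aurkb, the kinase of the chromosomal passenger complex, had 33.1 and 10.9 against 120 and 154 (−2.77, SE 0.55, adjusted p = 0.012), the largest fall of this role. Foxm1, the factor that switches on many of the others, had 107 and 100 against 211 and 239 (−1.11, SE 0.23, adjusted p = 0.0146), the smallest fall among the 25 mitosis genes. The centrosomal and spindle kinases Aurka (−2.37) and Plk1 (−1.87) and survivin, Birc5 (−2.14), the passenger complex partner of Aurkb, were lower too. In Cdk1, Ccnb1 and Aurkb the Tw2pos replicates differed about 3-fold from each other, and all 3 lost their call when a library was left out.

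The 5 genes of the spindle checkpoint and of the anaphase-promoting complex (APC/C), the ligase that ends mitosis, were all lower. Bub1b, a checkpoint protein that restrains the APC/C, had 68.8 and 63.9 normalised counts in Tw2pos against 215 and 272 in Tw2neg (log2 fold change −1.85, SE 0.26, adjusted p = 0.00398). Bub1, its kinetochore kinase partner, had 17.8 and 10.9 against 74.0 and 116 (−2.65, SE 0.43, adjusted p = 0.00657). Cdc20, the APC/C activator, had 80.3 and 53.1 against 137 and 171 (−1.22, SE 0.32, adjusted p = 0.0286). Bub1 moved most and Cdc20 least, with Mad2l1, the checkpoint protein that holds Cdc20, at −1.40 and Ube2c, the APC/C's ubiquitin-conjugating enzyme, at −2.40. Ube2c shares 22.8% of its exon bases with Tnnc2, a muscle troponin gene on the opposite strand.

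The centromere and chromosome genes were lower for all 5, and the fall of Cenpa was, with that of E2f2, the largest of the 44 genes. Cenpa (chr5:30666777-30674830, plus strand), the histone variant that marks centromeres, had 61.2 and 30.2 normalised counts in Tw2pos against 399 and 868 in Tw2neg (log2 fold change −3.74, SE 0.49, adjusted p = 0.00331). Mki67 (chr7:135689784-135716361, minus strand), whose protein Ki-67 coats mitotic chromosomes and is the usual marker of cycling cells, had 244 and 124 against 1502 and 1861 (−3.26, SE 0.34, adjusted p = 0.00181). That is a mean of 184 ± 84.3 against 1682 ± 254, 9.15-fold lower. Top2a, the topoisomerase that untangles sister chromatids, had 227 and 112 against 786 and 1189 (−2.59, SE 0.38, adjusted p = 0.00477). Cenpe (−2.18) and Cenpf (−1.90), which act at the kinetochore, were lower as well. In Mki67, Top2a and Cenpa replicate 1 of Tw2pos was about 2-fold above replicate 2, and neither reached the Tw2neg range.

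The 6 genes of the spindle and of cytokinesis were all lower. Kif11, the motor that pushes spindle poles apart, had 73.9 and 36.2 normalised counts in Tw2pos against 251 and 358 in Tw2neg (log2 fold change −2.51, SE 0.40, adjusted p = 0.0063). Tpx2, which activates Aurka on the spindle, had 47.2 and 55.5 against 183 and 221 (−1.95, SE 0.27, adjusted p = 0.00402). Kif23, a motor of the central spindle, had 61.2 and 25.3 against 189 and 261 (−2.46, SE 0.46, adjusted p = 0.0102). All 4 values of these genes in Tw2pos and Tw2neg kept apart, as they did for Prc1, the bundler of central spindle microtubules, with 94.3 and 50.7 against 191 and 199 (−1.48, SE 0.35, adjusted p = 0.0216). Nusap1, a spindle assembly protein, stood at −2.23 and Kif20a, a cytokinesis motor, at −1.32. Prc1 shares 11.1% of its exon bases with Rccd1 and Kif20a 29.3% with Cdc23, both on the opposite strand.

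Other genes of the same machinery were read from 6 wider lists that hold none of the 44. Of their 136 genes 75 were lower, 3 were higher and 58 did not pass, with a median of −1.05. Spindle and cytokinesis genes were lower for 14 of 17 (median −2.09) and kinetochore genes for 18 of 26 (median −1.65), with none higher. Cep55, which completes abscission, had the largest fall in the first list (24.2 and 9.65 normalised counts in Tw2pos against 87.8 and 129 in Tw2neg, −2.71). Racgap1, of the central spindle, had 99.4 and 63.9 against 309 and 380 (−2.09). In the kinetochore list Spc24, of the Ndc80 complex, fell by 3.02 on the log2 scale, whereas Zwint had 417 and 392 against 322 and 397 (0.18) and did not pass.

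Replisome and origin genes were lower for 19 of 40 (median −0.78), condensin and cohesin genes for 9 of 17 (−0.80), with none higher in either list. Fen1, the flap nuclease of Okazaki fragments, had 40.8 and 53.1 normalised counts in Tw2pos against 236 and 381 in Tw2neg (−2.66, adjusted p = 0.00294). Timeless, of the fork protection complex, had 340 and 329 against 1225 and 785 (−1.55, adjusted p = 0.00642), and its partner Tipin had 176 and 153 against 149 and 158 (0.10). Dut, an enzyme of nucleotide supply in that list, did not pass (−0.25). Cdca5, sororin, which protects cohesion in dividing cells, had 6.37 and 6.03 against 56.1 and 92.0 (−3.34), while Stag2, a cohesin subunit of all cells, had 2032 and 2137 against 1943 and 2695 (−0.13) and did not pass.

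The list of the retinoblastoma, E2F and DREAM proteins had 7 of 17 lower and 1 higher (median −0.65). E2f8, a repressor made in S phase, fell most, with 16.6 and 6.03 normalised counts in Tw2pos against 121 and 127 in Tw2neg (−3.49, SE 0.51, adjusted p = 0.00468). E2f6, a repressor without a pocket protein site, was higher, with 233 and 259 against 151 and 143 (0.74, SE 0.22, adjusted p = 0.0408). Rbbp4, a MuvB subunit, had 1571 and 1620 against 1329 and 1865 (0.02) and did not pass. Of the Cdk control and APC/C genes 8 of 19 were lower and 2 were higher (median −0.62). Ccnf, cyclin F, had 8.92 and 9.65 against 85.4 and 106 (−3.22). Wee1, the kinase that holds Cdk1 inactive, was higher, with 323 and 329 against 207 and 166 (0.81, SE 0.22, adjusted p = 0.0313). Cdc16, an APC/C subunit, was higher too (0.68), and Anapc5, with 3721 and 3900 against 2775 and 2374, did not pass (0.57, adjusted p = 0.0633).

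**Figure D3:**
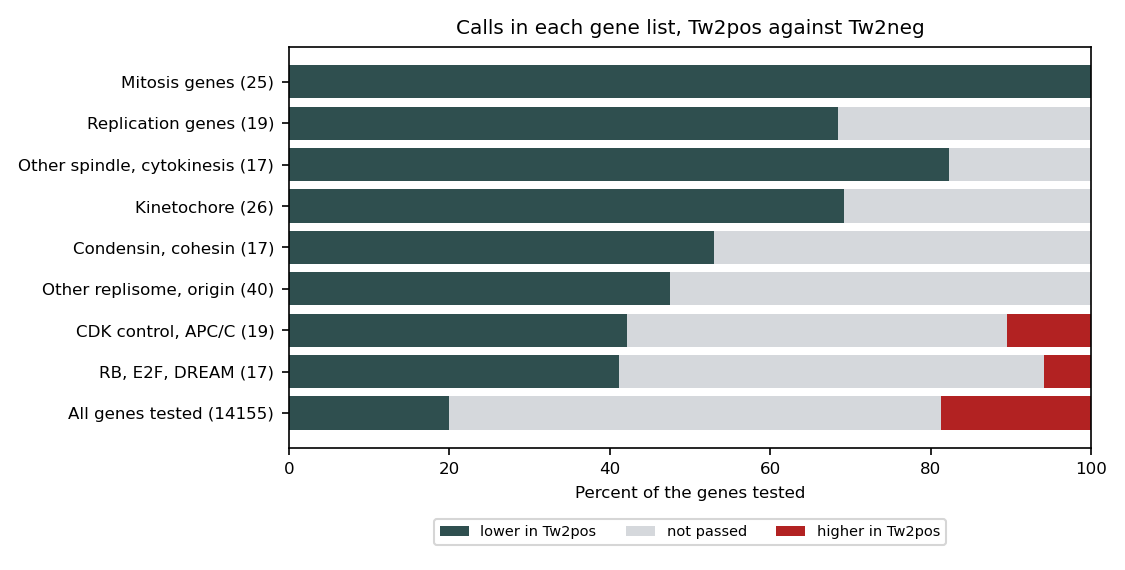
Percent of the genes tested that were lower, not passed or higher in Tw2pos against Tw2neg, for the mitosis genes, the replication genes, the 6 wider lists and all 14155 genes tested (number of genes in brackets). The mitosis bar is wholly lower, and the lists of the E2F and Cdk regulators hold the only higher genes among the cell cycle lists.

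Marker genes of blood cells moved with these calls. All 14 myeloid and neutrophil markers in the table were lower in Tw2pos, and their summed level was 130 and 139 CPM in Tw2pos against 8062 and 7903 in Tw2neg. All 8 T cell markers and 8 of 9 tested B lineage markers were lower, Ebf1 being higher at 2306 and 2810 normalised counts against 1294 and 1402, and Rag1, Rag2 and Igll1 had no read in either Tw2pos library. S100a9, the neutrophil marker with the highest mean, had 140 and 77.2 normalised counts against 20729 and 21018. The T cell gene Tcf7 had 20.4 and 50.7 against 1379 and 2347. All 5 tested erythroid markers were lower, among them Alas2 with 33.1 and 13.3 against 953 and 776, and Tfrc, also a gene of dividing cells at large, with 277 and 330 against 1053 and 1595. Gata1 had no read in Tw2pos, and Hba-a1 and Hbb-bs are listed at 0 in all 4 libraries. Macrophage markers were lower for 7 of 8, with Csf1r at 426 and 497 against 2431 and 1853, and endothelial markers for 7 of 8, with Pecam1 at 1770 and 1429 against 8775 and 3810. Mesenchymal progenitor markers were higher for 6 of 8, with Col1a2 at 413012 and 423991 against 90925 and 42385, which did not pass (2.75, adjusted p = 0.0628). Of 8 satellite cell markers 3 were lower and 1 higher, Chodl, at 5936 and 5880 against 1607 and 721. The part of these cells in the replication and mitosis levels was not tested.

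The CPM table places labelled cells of the Twist2 line beside labelled cells of the Pax7 line. It holds 8 of the 19 replication genes and 13 of the 25 mitosis genes, 47.7% of the 44, against 34.9% of the genes tested above. Every gene in it reaches 10 CPM in a minimum of 3 libraries and, in the authors' own fold changes, differs 2-fold or more from Tw2neg in at least 1 other group, so its genes were partly chosen for a difference from Tw2neg. The 10 CPM floor also favours genes that are high in the Pax7 line: 14 of the 21 genes reached it in fewer than 3 Twist2 libraries and so needed a Pax7 library to be listed (19.4% of all genes in the table did), and Cdk1 and Cdc20 needed Pax7pos. The other 23 genes have no Pax7 value here, and the counts that follow describe the 21 and are no measure of all 44. Tw2pos was lower than Pax7pos for 16 of the 21 genes and higher for none (limma over all 6 libraries), against 25.1% lower of all 4939 genes. Of the 7 genes that reached the floor in the Twist2 libraries 5 were lower (Cdt1, Mcm7, Rrm2, Mki67 and Top2a), against 1099 of 3981 among all such genes. Of the 14 that needed a Pax7 library 11 were lower, against 141 of 958 among all such genes. The lone Pax7 libraries are assumed there to vary like the Twist2 pairs. The median log2 fold change was −1.58 over the 21 genes, with all 21 below 0. It was 0.41 over all genes of the table, with 2060 of 4939 below 0. Both Tw2pos libraries were under each of the other 4 libraries for all 21 genes. The choice of genes partly fixes this, and the share over all genes of the table was not counted, so nothing is read from it.

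**Figure D4:**
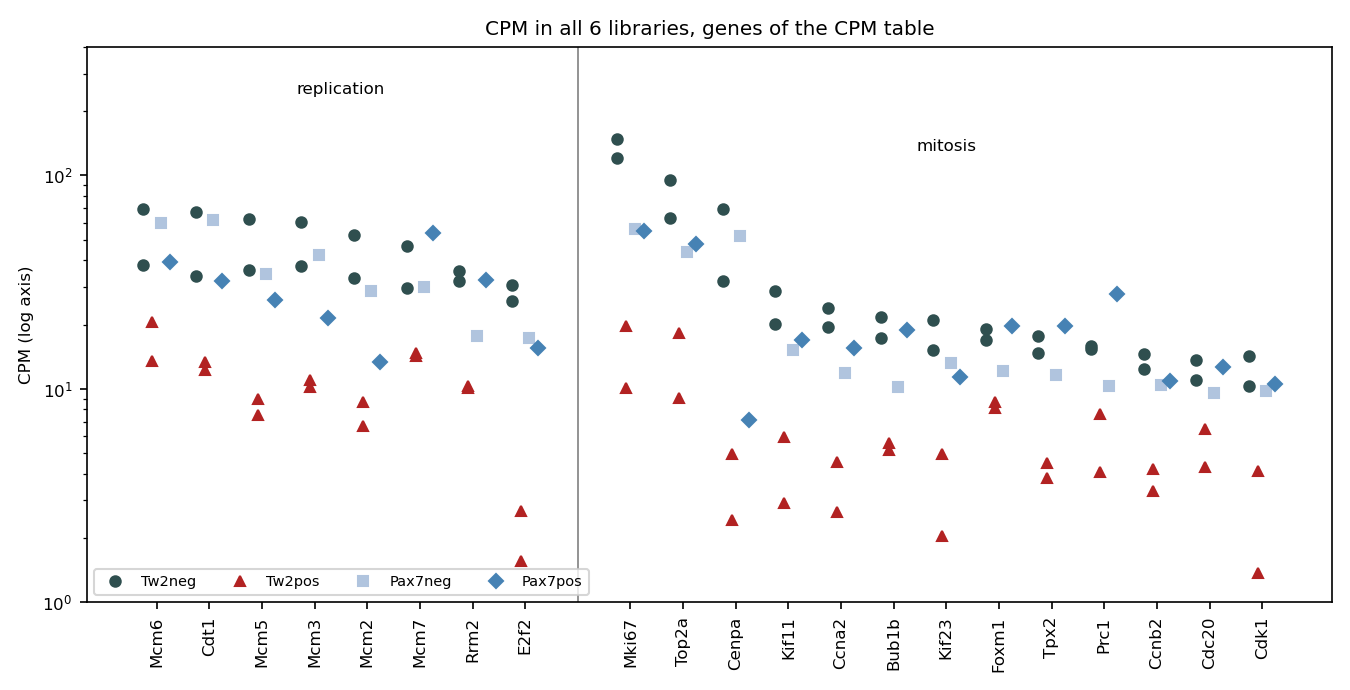
CPM (log axis) of the 8 replication and 13 mitosis genes of the CPM table in each of the 6 libraries, ordered within each set by the Tw2neg mean. The Tw2pos triangles lie under every other symbol for each gene, which the choice of genes partly fixes. For Cenpa the Pax7pos diamond (7.10) lies far under the Pax7neg square (51.8).

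E2f2 differed most, at 2.68 and 1.56 CPM in Tw2pos and 15.5 in Pax7pos (log2 fold change −2.42, SE 0.42, adjusted p = 0.00256). Prc1 stood at 7.62 and 4.09 CPM against 27.9 in Pax7pos (−2.12, SE 0.45, adjusted p = 0.00541), and Tpx2 at 3.81 and 4.48 against 19.7 (−2.01, SE 0.40, adjusted p = 0.00427). These genes of the G1/S switch and of the spindle were each low in both Tw2pos libraries. Mki67 stood at 19.7 and 10.0 CPM against 55.1 (−1.89, SE 0.43, adjusted p = 0.00715) and Top2a at 18.3 and 9.06 against 47.6 (−1.80). Mcm7, at 14.7 and 14.2 against 53.6 (−1.82, SE 0.38, adjusted p = 0.00541), and Rrm2, at 10.3 and 10.1 against 32.5 (−1.58, SE 0.34, adjusted p = 0.00636), led the remaining replication genes. Mcm5 (−1.55) and Cdt1 (−1.27) passed too, and so did Ccna2 (−1.89), Kif11 (−1.78), Cdk1 (−1.73), Bub1b (−1.64), Kif23 (−1.54), Ccnb2 (−1.32) and Foxm1 (−1.15).

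The 5 that did not pass were 3 helicase subunits, Cdc20 and Cenpa. Mcm2 stood at 8.65 and 6.72 CPM in Tw2pos and 13.4 in Pax7pos (log2 fold change −0.74, SE 0.41, adjusted p = 0.157), the smallest difference of the 21. Mcm3 stood at 11.0 and 10.2 against 21.5 (−0.95, adjusted p = 0.0665) and Mcm6 at 13.5 and 20.7 against 39.2 (−1.18, adjusted p = 0.0523). Cdc20 stood at 6.49 and 4.29 against 12.6 (−1.12, adjusted p = 0.0566), and Cenpa at 4.94 and 2.44 against 7.10 (−0.84, SE 0.55, adjusted p = 0.217). The count of 16 depended on which libraries were in the fit, as did the calls over all genes. Without Tw2pos replicate 1 the median log2 fold change of the 21 genes was −1.68, and without Tw2pos replicate 2 it was −1.36. Those fits leave 1 library on each side, so no call on a gene is read from them. With DESeq2 on the recovered reads all 21 passed, where the median of all genes was 0.02 and the calls over all genes were 1317 higher and 1618 lower, beside 1665 higher and 1240 lower here. Cdt1 missed the threshold with a pseudocount of 5 and, with Cdk1, under quantile normalization, where 862 genes were higher and 998 lower.

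Some marker lists of other cells differed between the labelled fractions as well, where 1665 of all 4939 genes were higher in Tw2pos than in Pax7pos. Macrophage markers were higher in Tw2pos than in Pax7pos for 7 of 8 and lower for 1, with a summed level of 174 and 229 CPM in Tw2pos and 65.9 in Pax7pos, against 764 and 512 in Tw2neg and 1014 in Pax7neg. Endothelial markers were higher for 5 of 8 and lower for none, with 589 and 416 CPM in Tw2pos and 133 in Pax7pos, against 2999 and 1081 in Tw2neg and 1049 in Pax7neg. Myeloid and neutrophil markers were higher for 2 of 12, a smaller share than over all genes, and lower for none. Summed over the 12 myeloid and neutrophil markers of the CPM table, the level was 130 and 139 CPM in Tw2pos and 67.7 in Pax7pos, against 8029 and 7870 in Tw2neg and 4674 in Pax7neg. The 8 T cell markers summed to 8.24 and 18.3 CPM in Tw2pos and 14.3 in Pax7pos, with Cd8a listed at 0 in Pax7pos, and the 6 B lineage markers to 190 and 233 in Tw2pos, mostly Ebf1, and 8.04 in Pax7pos. The 3 erythroid markers summed to 26.4 and 29.0 CPM in Tw2pos and 71.6 in Pax7pos. Over the same table the 13 mitosis genes summed to 98.9 and 59.9 CPM in Tw2pos, 274 in Pax7pos, 369 and 504 in Tw2neg and 266 in Pax7neg. The 8 replication genes summed to 82.1 and 84.4 CPM in Tw2pos, 234 in Pax7pos, 266 and 426 in Tw2neg and 293 in Pax7neg. The mitosis sums of Pax7pos and Pax7neg, 1 library each, hide differences between genes. Cenpa was far lower in Pax7pos (7.10 against 51.8 CPM), and 10 of the 13 genes were higher there. Satellite cell markers summed to 3696 CPM in Pax7pos, with Myod1, a myogenic factor of activated satellite cells, at 993 CPM, and to 227 in Pax7neg. The part of these cells in the difference between Tw2pos and Pax7pos was not tested.

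**Figure D5:**
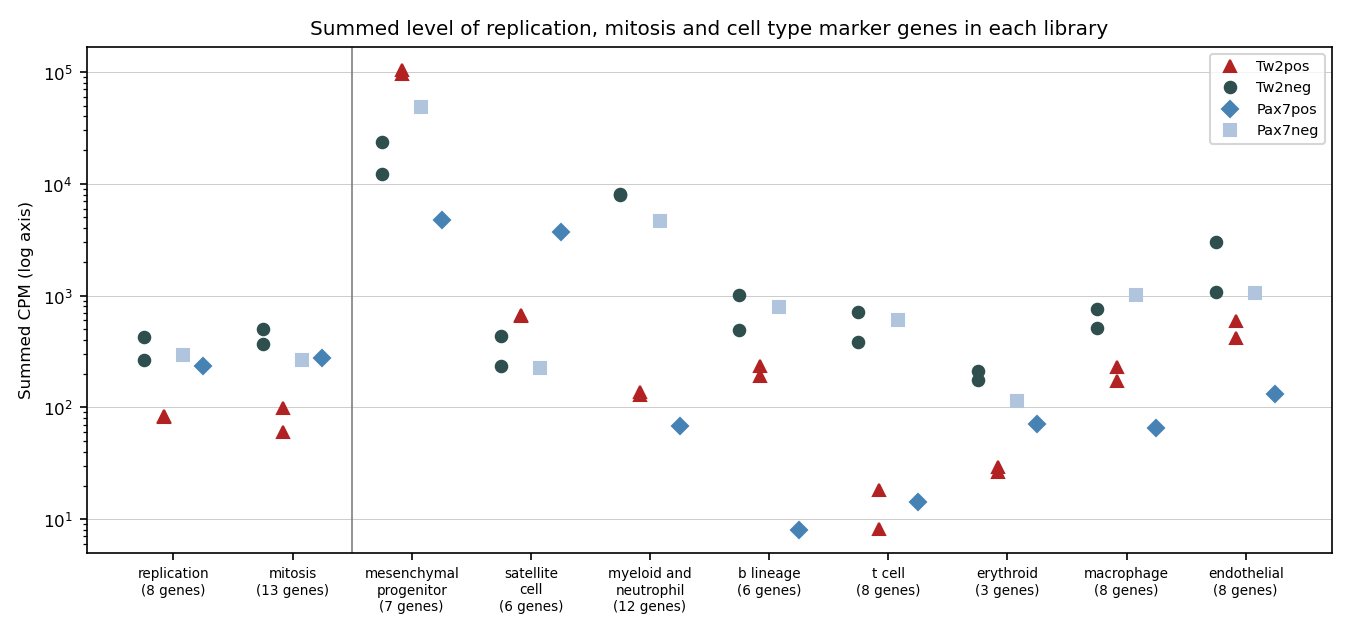
Summed CPM (log axis) of the replication and mitosis genes and of 8 cell type marker lists in each of the 6 libraries, over the genes of the CPM table. The Tw2pos triangles are lowest for replication and mitosis. In the myeloid list Pax7pos (67.7) and Tw2pos (130 and 139) lie far under the unlabelled fractions.

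Labelled and unlabelled cells of the Pax7 line were set side by side without a test, as each is 1 library, and a size of at least 2-fold on the scale of log2(CPM + 10) was taken as different. None of the 21 genes was higher in Pax7pos and 1 was lower, against 18.3% higher and 33.0% lower of all 4939 genes. Adding 10 shrinks the difference of a gene near 10 CPM more than that of an abundant gene. These counts and shares are therefore not like for like. The median log2 difference was 0.05 over the 21 genes and −0.43 over all genes of the table. Cenpa was the lower gene, with 7.10 CPM in Pax7pos, from 68 reads (95% Poisson interval 5.52 to 9.01, for counting error only), and 51.8 in Pax7neg. Mki67 stood at 55.1 and 56.2 CPM and Top2a at 47.6 and 43.7 in Pax7pos and Pax7neg, so these markers were close in both libraries. With a pseudocount of 1, Prc1 became 2-fold higher (27.9 against 10.3 CPM) and Mcm2 2-fold lower (13.4 against 28.8 CPM). On that scale 1170 of all 4939 genes were at least 2-fold higher in Pax7pos and 2143 lower.

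Most of these differences in the Pax7 line were under 2-fold with either pseudocount. Pax7pos had the higher CPM for 10 of 13 mitosis genes and for 2 of 8 replication genes, Mcm7 (53.6 against 29.9) and Rrm2 (32.5 against 17.8), where 42.3% of all genes in the table were higher. With 1 library on each side these counts have no test, and nothing is read from them about the 2 sets. The other helicase subunits and Cdt1 were lower in Pax7pos: Cdt1 stood at 32.2 against 61.9 CPM, Mcm3 at 21.5 against 42.4, Mcm6 at 39.2 against 59.9 and Mcm5 at 26.0 against 34.5. E2f2 was close, at 15.5 and 17.4. Among the mitosis genes Foxm1 (19.7 against 12.1 CPM), Bub1b (18.8 against 10.2) and Tpx2 (19.7 against 11.6) were higher in Pax7pos, while Ccnb2 (10.9 and 10.4) and Cdk1 (10.6 and 9.80) were close and Kif23 was 11.4 against 13.3. On the scale of log2(CPM + 10) no gene but Cenpa reached 2-fold. The quotient of replication over mitosis sums was 0.854 in Pax7pos and 1.10 in Pax7neg, where the same 21 genes gave 0.830 and 1.41 in Tw2pos and 0.723 and 0.846 in Tw2neg, so over these genes the Twist2 groups overlapped.

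Between the unlabelled cells of the 2 lines none of the 21 genes passed. Of all 4939 genes limma called 3 (0.0607%), and 769 had an unadjusted p under 0.05, 2 of the 21 genes among them. edgeR called 0 genes and DESeq2 253, and neither called any of the 21. The median log2 difference of Tw2neg from Pax7neg was 0.45 over the 21 genes, with 18 of them above 0. It was −0.06 over all 4939 genes, with 2261 above 0. Mki67 lay farthest, at 121 and 149 CPM in Tw2neg and 56.2 in Pax7neg (1.24, SE 0.43, adjusted p = 0.225). The Tw2neg replicates themselves differed, replicate 2 having the highest level of all 6 libraries for 17 of the 21 genes and Pax7pos for the other 4. Over the fits without a replicate the log2 difference ran from 1.09 to 1.39 for Mki67 and from 0.81 to 0.97 for Rrm2. It was 0.71 to 1.02 for Bub1b, 0.063 to 0.85 for Mcm5 and −0.85 to 0.13 for Cdt1. Fits without a Tw2neg replicate leave 1 library on each side, so no call on a gene is read from them.

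The last comparison asked whether the difference between labelled and unlabelled cells was the same in both lines. It was more negative in the Twist2 line for all 21 genes, against 2092 of all 4939 genes. The test passed for 12 of the 21, against 12.5% of all 4939 genes in that direction. The floor of the table, which 14 of the 21 genes reached with a Pax7 library, bears on this count too. The median was −2.01 over the 21 genes and 0.37 over all genes. The 12 were the replication genes E2f2 (−3.09, SE 0.60, adjusted p = 0.00682), Rrm2 (−2.47), Mcm7 (−2.13) and Mcm5 (−2.01), and 8 mitosis genes led by Mki67 (−3.13, SE 0.60, adjusted p = 0.00671). Those that did not pass were Cdt1, Mcm2, Mcm3, Mcm6, Ccnb2, Cdk1, Cdc20, Kif23 and Cenpa, the last at −0.71 (SE 0.78, adjusted p = 0.489), where both labelled fractions were low. The count depended on which libraries were in the fit, as did the calls over all genes. The median of the 21 genes was −2.36 without Tw2pos replicate 1 and −1.89 without Tw2pos replicate 2. It was −2.40 without Tw2neg replicate 1 and −1.80 without Tw2neg replicate 2. With DESeq2 the count rose to 20. The calls over all genes were 1145 higher and 619 lower here, 980 higher and 1110 lower with TMM factors, and 903 higher and 1358 lower with DESeq2. All these comparisons share libraries, so they are not independent of one another.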

How the data were processed

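The deposited data are 2 tables. The authors' table of normalised counts, a read signal scaled per library, covers the 4 Twist2 libraries; the submitters' processing notes name TopHat2 2.0.0, DESeq2 1.6.3 and GRCm38/mm10, while the counter, the annotation and the strand setting are not given there. Divided by what 1 read is worth, 100% of the single-library values were whole within 0.01. The deposited CPM table (4939 genes, Twist2 groups as means) carries the authors' log2 fold changes, used only to see how its genes had been chosen, and single Twist2 libraries were rebuilt in CPM from the recovered reads. Of the columns that hold values of single samples, 0 were left unmapped. Reads per library, given with the results, ran from 10902318 to 13205751 in the Twist2 line.

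Tw2pos and Tw2neg were compared with limma 3.58.1 in R 4.3.3 (variance trend) on log2(normalised count + 1) for genes whose mean reached 10, and the CPM comparisons on log2(CPM + 1) over 6 libraries and all 4939 genes, with Benjamini-Hochberg adjustment over all genes tested. The fits had 2 residual degrees of freedom. edgeR 4.0.16 and DESeq2 1.42.0 on recovered reads, other scalings, pseudocounts and filters, and leaving out each Twist2 replicate were the alternatives. The scripts were tested on simulated data. Python 3.11.15 with pandas 2.3.3, numpy 2.4.6, matplotlib 3.10.9 and scipy 1.17.1 served for summaries and plots.

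The genes, lists and tests were chosen with earlier results of these data known. Values of single libraries are given, in each role, for the gene with the highest mean, the one with the largest change, those that did not pass and those in the CPM table, and in the wider lists for the gene with the highest mean and the largest passing change each way. Cell type lists are given by the gene with the highest mean and by markers without a read. Gene positions are from GENCODE M21. Exon overlaps came from the same annotation.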

Additional observations from a re-analysis of the deposited data

Results flagged for a closer look

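In 12 of the 21 genes of the CPM table the difference between labelled and unlabelled cells itself differed between the lines, by the limma test. It was the more negative in the Twist2 line, where 12.5% of all 4939 genes passed in that direction. Of the 12, Mcm7, Rrm2, Mki67 and Top2a reached the 10 CPM floor in the Twist2 libraries. The others needed a Pax7 library to be listed, which bears on this count. The log2 values, Twist2 line minus Pax7 line, were −3.09 for E2f2, −2.47 for Rrm2, −2.13 for Mcm7 and −2.01 for Mcm5 among the replication genes. Among the mitosis genes they were −3.13 for Mki67, −2.69 for Ccna2, −2.68 for Prc1, −2.61 for Top2a, −2.50 for Bub1b, −2.46 for Tpx2, −2.40 for Kif11 and −1.69 for Foxm1. The Pax7 line gave 1 library to each side. The count of 12 depended on which Twist2 libraries were in the fit, as did the calls over all genes.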

How the results depend on the processing

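Groups of 2 and 1 libraries are the main limit, and the strand setting and the origin of the replicates are not known from the labels. Some weakly expressed genes rest on few reads in Tw2pos (3 for Ccnb1 in replicate 2).

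Between Tw2pos and Tw2neg the 38 genes had a log2 fold change below 0 wherever they were tested, but a mean of at least 50 tested 35 of them (40 of the 44), and only 21 entered the fit over the CPM table. In that fit 21 passed (3097 of all genes), and 35 to 41 of the 44 passed under other scalings, pseudocounts, filters and tools. Leaving out a replicate gave 26 to 37 genes (2578 to 7370 of all genes). The log2 fold changes that turned sign belong to genes that did not pass: E2f1 −0.17 and Tyms −0.16 with library totals, and Chek1 0.0062 with quantile normalization and −0.84 to 0.029 over the fits without a replicate. Summed replication genes in Tw2pos were 44.7% of Tw2neg in normalised counts, beside 45.1% in CPM. With sums chosen after seeing the data, they were 30.2% without Mcm4, Pcna and Rrm1 and 24.0% over the 8 genes of the CPM table. With the replicate block 38 of the 44 genes passed, as without it. The labels do not say that replicate numbers mark shared animals, and the replicate differences of the 2 groups correlated across genes at r = 0.263. No paired analysis was possible for the Pax7 line because it has 1 library per group.

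Between Tw2pos and Pax7pos 15 to 21 of 21 genes passed, except that a mean of at least 50 CPM leaves 1 gene, which passed (1501 of all genes), and that leaving out a replicate gave 3 to 20 (1658 to 3817 of all genes). Quantile normalization called 1860 of all genes. Between Tw2neg and Pax7neg the calls over all genes were 60 with TMM factors, 1 with quantile normalization, with a pseudocount of 5 and without a variance trend, 12 with a pseudocount of 0.5, 18 with a mean of at least 50, 0 with edgeR and 253 with DESeq2. Leaving out a replicate gave 47 to 1049 there, and 0 to 4 of the 21 genes. Values that turned sign in that comparison were Mcm6 0.034 and Cenpa 0.17 with DESeq2 and, over the fits without a replicate, Mcm6 (−0.64 to 0.21), Cenpa (−0.68 to 0.41), Cdt1 (−0.85 to 0.13), Mcm3 (−0.16 to 0.50) and Mcm7 (−0.011 to 0.63).

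For the difference between the lines, quantile normalization called 962 and a mean of at least 50 called 979 of all genes, with 1 of the 44 genes tested in the latter, which passed. DESeq2 called 20 of the 21 genes, and leaving out a replicate gave 2 to 20 (952 to 3173 of all genes). Between Pax7pos and Pax7neg a pseudocount of 1 in place of 10 raised the genes at 2-fold from 1 to 3. Apart from the smaller tables, the cause of these changes was not tested.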

Other observations

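Outside the 44 genes, several cell cycle regulators of the wider lists stood highest in Pax7pos. E2f3, an activating E2F factor, was at 73.0 CPM in Pax7pos, 15.2 in Pax7neg, 14.7 and 14.5 in Tw2pos and 12.6 and 14.4 in Tw2neg, and was lower in Tw2pos than in Pax7pos (limma adjusted p = 0.00156). Smc1a, a cohesin subunit, was at 464 CPM in Pax7pos, 145 in Pax7neg, 161 and 139 in Tw2pos and 166 and 155 in Tw2neg (adjusted p = 0.00371 for the same comparison). Zwint, of the outer kinetochore, was at 85.6 CPM in Pax7pos and 40.8 in Pax7neg, with 33.7 and 31.7 in Tw2pos (adjusted p = 0.00903). For these genes the single Pax7pos library lay above all others, and they were picked after their values were seen. Other genes of these lists went the other way: Rbl2 (log2 fold change 1.66, limma adjusted p = 0.00352) and Cenpl (1.57, adjusted p = 0.0124) were higher in Tw2pos than in Pax7pos. In the retinoblastoma and E2F list 1 of 5 tested genes was lower in Tw2pos, in the kinetochore list 3 of 5 and in the condensin and cohesin list 3 of 5. Of 11 replisome and origin genes 1 was lower and none was higher.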
